A study of Homo sapiens with 6 samples.

Results

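The genes described here mostly encode inhibitors and feedback regulators of NF-kB signaling. Among them are the IkB family members NFKBIA, NFKBIB, NFKBIE, NFKBIZ and BCL3. The others are the ubiquitin-editing proteins and their partners TNFAIP3, TNIP1, TNIP2 and CYLD, and the kinase MAP3K14, which acts as an activator. All were chosen by name, 10 genes in all, with earlier results of these data known. Every probe set annotated to 1 of them alone was taken. This gave 23 probe sets of 9 genes, among 54613 probe sets and 19775 genes on the array. The 2 probe sets that name BCL3 also name a microRNA gene, so BCL3 was not analysed here. Expression was measured in the IKPRAB36 cell line, Ishikawa endometrial cancer cells stably transfected with progesterone receptor A (PRA) and B (PRB), on 3 control arrays and 3 MPA arrays. Control cells were cultured for 48 h without hormone, and MPA cells for 48 h with 1 nM medroxyprogesterone acetate (MPA), a synthetic progestin. Both groups were kept in charcoal-stripped serum with hygromycin and neomycin. It is 1 transfected line, so no other cell background is represented. Whether the arrays of a group stand for separate cultures is not stated, and p-values here cover no more than the spread between arrays, possibly a technical one.

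NF-kB dimers are held in the cytoplasm by IkB proteins. Upstream receptors activate the IKK kinases, which mark the IkB proteins for degradation and so free the dimers to enter the nucleus. Several target genes of NF-kB encode its own inhibitors, among them NFKBIA and TNFAIP3, which close a negative feedback loop. A second, non-canonical branch runs through the kinase MAP3K14 and the precursor encoded by NFKB2. In endometrium the pathway is known for its part in cytokine and chemokine expression.

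The arrays of 1 group correlated at 0.987 to 0.997, and the median signal of an array was between 5.17 and 5.29 on the log2 scale. On array MPA 3 the 27 poly-A spike-in probe sets averaged 6.19, against 7.50 to 8.23 elsewhere. The 18S ribosomal RNA control probe sets of MPA 3 averaged 7.06, against 8.09 to 9.44 elsewhere, and its array median was the highest. The progesterone receptor gene PGR was at 10.22 ± 0.04 on control arrays and 10.70 ± 0.33 on MPA arrays (SD, n = 3). Of 5 hormone response genes measured, the steroid-induced FKBP5, TSC22D3 and KLF9 rose 11.8-fold, 5.84-fold and 4.68-fold. PGR and ZBTB16 did not pass, with log2 fold changes of 0.48 and -0.11, and ZBTB16 was below the array median on every array. All 6 epithelial markers were above the array medians, while the leukocyte markers PTPRC and CD14, the endothelial markers VWF and CDH5 and the fibroblast markers PDGFRB and LUM were below them on every array. COL1A1, CD3E, PECAM1 and DCN were above the medians, and no marker of any of these cell types passed the test. Of the 6 epithelial markers, EPCAM, CDH1 and PAX8 were lower on every MPA array than on every control array, KRT8 was higher, and KRT18 and KRT19 overlapped. Of the other markers COL1A1 alone was separated, with MPA below, where the groups did not overlap in 15.4% of all probe sets. The part of these markers in the results was not tested.

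MPA raised NFKBIA and TNFAIP3 and lowered NFKBIZ and MAP3K14, and the other 5 genes measured did not pass the test in any probe set. Calls were made with limma over all 54613 probe sets, at an adjusted p (Benjamini-Hochberg) below 0.05 and a log2 fold change of at least 0.32 in size, the fold minimum of the methods. When genes were counted, each by its brightest probe set, 2 of 9 rose and 2 fell, where 2.90% of all genes were called (1.74% rose and 1.16% fell). Over probe sets, 3 of 23 rose and 3 fell, where 2.03% of all probe sets were called (1.21% rose and 0.813% fell). Of the 5 member genes without a call, CYLD alone had an unadjusted p under 0.05, and it was also the only one that SAM, the test of the methods, called. The 9 genes had a median log2 fold change of 0.08 and a range of -0.96 to 2.20, and the median over all genes was 0.02.

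**Figure D1:**
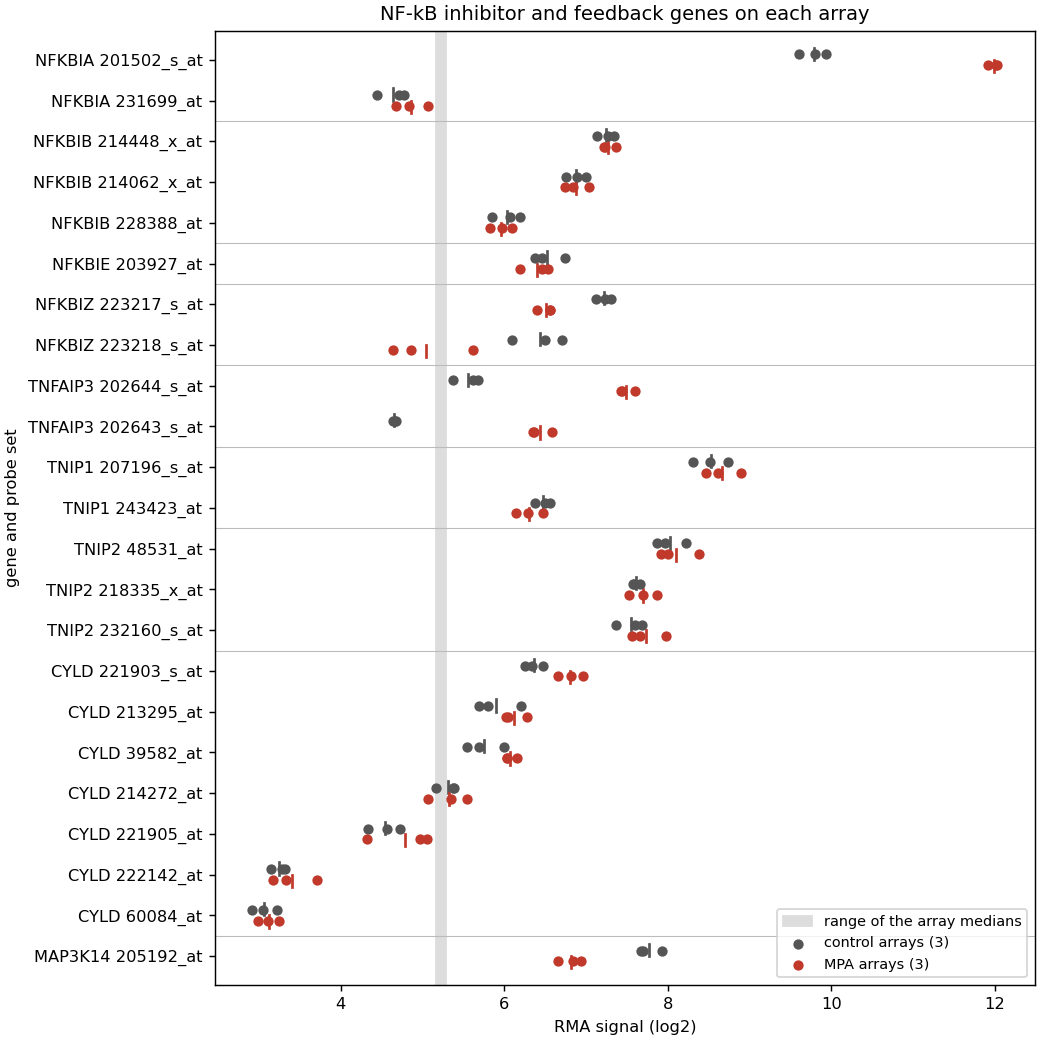
RMA signal on the log2 scale (x axis) of the 23 probe sets of 9 genes (y axis), on each of 3 control arrays (grey) and 3 MPA arrays (red), vertical bars for group means and a grey band over the range of the array medians. The MPA arrays of NFKBIA 201502_s_at lie at 11.91 to 12.03, above controls at 9.61 to 9.93, and those of MAP3K14 lie below the controls.

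The proximal promoters are shown for NFKBIA, TNFAIP3 and NFKBIZ, the genes in which the NF-kB consensus motif was found. The sequences are from RefSeq on GRCh38.p14 and cover the 250 bases upstream of the annotated start, 5′ to 3′, with matches to the motif in capitals. They lie at chr14:35404750-35404999 on the minus strand for NFKBIA, chr6:137867009-137867258 on the plus strand for TNFAIP3 and chr3:101827740-101827989 on the plus strand for NFKBIZ.
NFKBIA: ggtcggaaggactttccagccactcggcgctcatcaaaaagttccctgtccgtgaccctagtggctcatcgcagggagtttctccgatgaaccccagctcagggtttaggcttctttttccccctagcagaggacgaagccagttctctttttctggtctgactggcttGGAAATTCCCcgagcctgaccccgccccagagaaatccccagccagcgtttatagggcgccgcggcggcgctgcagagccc
TNFAIP3: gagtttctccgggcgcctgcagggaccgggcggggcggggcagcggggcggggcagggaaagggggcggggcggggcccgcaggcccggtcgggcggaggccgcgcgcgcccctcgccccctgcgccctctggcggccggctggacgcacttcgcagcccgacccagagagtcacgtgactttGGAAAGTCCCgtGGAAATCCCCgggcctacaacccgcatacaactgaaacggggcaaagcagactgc
NFKBIZ: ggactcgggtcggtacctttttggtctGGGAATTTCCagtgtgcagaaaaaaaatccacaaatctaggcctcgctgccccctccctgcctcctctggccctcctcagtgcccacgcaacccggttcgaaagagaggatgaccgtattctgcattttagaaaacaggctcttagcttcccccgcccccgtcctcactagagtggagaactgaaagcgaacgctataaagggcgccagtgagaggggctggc
NFKBIA holds 1 match, 81 to 72 bases upstream of the start. TNFAIP3 holds 2, at 67 to 58 and at 55 to 46 bases, and NFKBIZ holds 1 at 223 to 214 bases. The 10-base consensus was searched on both strands, and 9.96% of 35116 human promoters of the same length hold a match. Among the 9 promoters in the table, which has BCL3 but not NFKBIE, the other 6 hold none, MAP3K14 among them. Only 1 annotated start of each gene was searched, so a motif at another start would be missed. The motif was found in both genes that rose and in 1 of the 2 that fell. NFKBIA and TNFAIP3 are known targets of NF-kB, so a motif there is likely whatever MPA does. A link between motif and call was not tested. No member promoter holds the steroid receptor core motif AGAACA or the AP-1 motif TGANTCA on either strand. These are in 12.4% and 6.57% of all promoters, so their absence from 9 promoters carries little information. The full palindromic steroid receptor site contains the core motif, so it was absent as well, and 1 of 35116 promoters holds it. No match overlapped another. A match is a description of the letters and does not show binding in these cells.

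NFKBIA encodes the IkB protein that is resynthesized after each round of NF-kB activation. Its brighter probe set, 201502_s_at, had log2 signals of 9.93, 9.61 and 9.81 on the control arrays and of 12.03, 11.91 and 12.01 on the MPA arrays. The groups lay far apart, and the MPA arrays were close to one another. The mean went from 9.78 ± 0.16 to 11.98 ± 0.06 (SD, n = 3 arrays each), a log2 fold change of 2.20 (95% interval 1.94 to 2.47, adjusted p = 6.17e-05 from limma). This was the largest change among the 23 probe sets. In bulk RNA of this kind, a change within each cell and a change in the number of cells that express a gene cannot be told apart. The other NFKBIA probe set, 231699_at, was below the array median on all 6 arrays, with means of 4.65 ± 0.18 and 4.86 ± 0.20. Its log2 fold change was 0.21 (adjusted p = 0.728), and its groups overlapped.
The remaining cytoplasmic IkB genes did not pass the test. NFKBIB encodes an IkB that binds RELA and REL dimers, and its brightest probe set had log2 signals of 7.34, 7.13 and 7.27 in control cells and 7.22, 7.23 and 7.36 with MPA. These arrays interleaved, with a log2 fold change of 0.02 (95% interval -0.22 to 0.27). The limit of that interval farther from 0 corresponds to a 1.20-fold change, and the log2 fold changes of the other 2 probe sets of NFKBIB lay between -0.08 and 0.00 with adjusted p of 0.936 to 0.999. For NFKBIE, which encodes the third of these IkB proteins, the control arrays were at 6.74, 6.38 and 6.46 and the MPA arrays at 6.53, 6.19 and 6.47. Its groups overlapped as well, with a log2 fold change of -0.13 (95% interval -0.45 to 0.19, adjusted p = 0.880 from limma). The interval of NFKBIA does not meet those of NFKBIB and NFKBIE, but a difference between genes was not tested.

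NFKBIZ, which encodes a nuclear IkB protein that works as a cofactor of NF-kB at a subset of its targets, was lower with MPA in both of its probe sets. The brighter one, 223217_s_at, read 7.12, 7.31 and 7.23 on the control arrays and 6.41, 6.57 and 6.56 on the MPA arrays. All MPA arrays were below all control arrays, and the mean fell by 0.71 on the log2 scale (95% interval -0.95 to -0.46, adjusted p = 0.0124 from limma). The dimmer one, 223218_s_at, was at 6.10, 6.71 and 6.50 in control cells and at 4.86, 5.63 and 4.64 with MPA. Its groups did not overlap either, although its MPA arrays spread by an SD of 0.52, the widest of the 23 probe sets. It fell by 1.39 (95% interval -1.99 to -0.80, adjusted p = 0.0325), and 2 of its MPA arrays were below the array median, where a signal near background cannot be set apart from none. Each call was lost when certain single arrays were left out, although both log2 fold changes stayed negative. Without control 3 or MPA 1, the brighter probe set had log2 fold changes of -0.70 and -0.66 with adjusted p of 0.0879 and 0.0821. The dimmer one lost its call without control 1, control 2, control 3, MPA 1 or MPA 3, with adjusted p of 0.0600, 0.0730, 0.156, 0.161 and 0.0813 and log2 fold changes of -1.69 to -1.19 over the 6 arrays left out in turn.

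TNFAIP3, which encodes A20, an enzyme that edits ubiquitin chains on signaling proteins and so dampens the pathway, rose in both of its probe sets. In the brighter one, 202644_s_at, control arrays were at 5.63, 5.68 and 5.37 and MPA arrays at 7.60, 7.45 and 7.43. The lowest MPA array was thus well above the highest control array, and the log2 fold change was 1.93 (95% interval 1.66 to 2.20, adjusted p = 0.000144 from limma). The second, 202643_s_at, went from 4.66 ± 0.02 to 6.44 ± 0.13 (SD, n = 3 arrays each), a log2 fold change of 1.78 (adjusted p = 0.000136 from limma). Its 3 control arrays were below the array median, so that its fold of 3.43 is that of the RMA signals only, while the brighter probe set, with a fold of 3.82, was above the median on all 6 arrays.
The partners of A20 did not pass the test. TNIP1 encodes an adaptor that binds A20 and ubiquitin chains, and its brighter probe set was at 8.74, 8.31 and 8.52 in control cells and 8.61, 8.47 and 8.90 with MPA. The log2 fold change was 0.14 (95% interval -0.21 to 0.49, adjusted p = 0.884), and the other probe set pointed the other way, at -0.17 (adjusted p = 0.749). TNIP2, whose product also binds A20, was at 8.23, 7.87 and 7.97 against 8.0, 7.92 and 8.38 in its brightest probe set. In all 3 probe sets of TNIP2 the highest array of all was MPA 3, and their log2 fold changes were 0.08, 0.09 and 0.18 (adjusted p of 0.796 to 0.948). Without MPA 3, the brightest probe set of TNIP2 was at -0.06.
CYLD, a deubiquitinating enzyme and tumor suppressor, had 7 probe sets, all with a positive log2 fold change, from 0.01 to 0.45. The brightest, 221903_s_at, gave 6.26, 6.48 and 6.35 in control cells and 6.66, 6.96 and 6.81 with MPA. Here the groups did not overlap, and the mean was 0.45 higher with MPA (95% interval 0.18 to 0.72), but the adjusted p of 0.147 from limma did not pass. A second CYLD probe set, 39582_at, was at 5.55, 6.0 and 5.69 against 6.03, 6.16 and 6.04, a log2 fold change of 0.33 (adjusted p = 0.435). Its groups were separated by a narrow margin. Of the remaining 5 probe sets, 3 were below the array median on every array, and the groups overlapped in all 5. SAM called 221903_s_at higher and no other CYLD probe set.

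MAP3K14 encodes the kinase NIK, which starts the non-canonical branch by activating the IKK kinase CHUK, and it acts as an activator where the genes above mostly act as inhibitors. No NF-kB motif was found in its promoter. Its only probe set was at 7.93, 7.70 and 7.68 on the control arrays and at 6.65, 6.84 and 6.94 on the MPA arrays. Every MPA array was below every control array, and the mean fell by 0.96 on the log2 scale (95% interval -1.24 to -0.67, adjusted p = 0.00558 from limma). In NFKB2, whose product is processed in this branch, control arrays were at 5.97, 5.82 and 6.01 and MPA arrays at 6.03, 6.08 and 6.05. The groups of NFKB2 did not overlap, with MPA above, but all its arrays lay within 0.26 of one another. Its log2 fold change was 0.12 and did not pass (adjusted p = 0.824 from limma). TRAF3, which takes part in the degradation of MAP3K14 protein, was at -0.18 (adjusted p = 0.683).

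**Figure D2:**
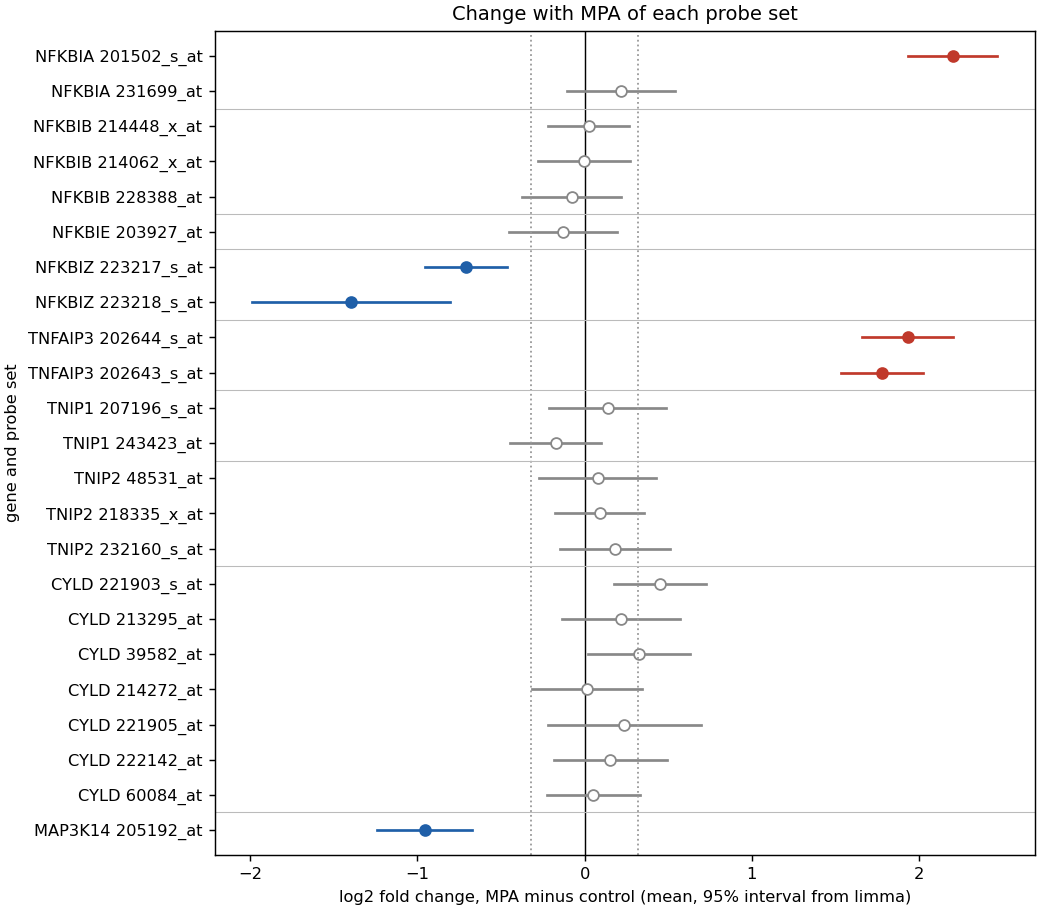
Change with MPA as log2 fold (x axis, 3 arrays a group) and its 95% interval from limma, for each of the 23 probe sets (y axis). Filled red points rose, filled blue points fell, open grey points did not pass, and dotted lines mark 0.32 in either direction. The highest point is NFKBIA 201502_s_at at 2.20 and the lowest NFKBIZ 223218_s_at at -1.39.

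Of the 17 probe sets that did not pass, log2 fold changes lay between -0.17 and 0.45, and 15 of their 95% intervals held 0. The 2 that did not were the CYLD probe sets 221903_s_at and 39582_at. Intervals of the 17 reached from -0.45 to 0.72 at most. In 8 of the 23 probe sets the MPA arrays lay wholly on one side of the control arrays, above in 5 and below in 3, where this held for 7.94% and 7.43% of all probe sets.
The calls of NFKBIA 201502_s_at, both TNFAIP3 probe sets and MAP3K14 held whichever of the 6 arrays was left out. The adjusted p of NFKBIA 201502_s_at was then at most 0.00135, that of TNFAIP3 at most 0.00251 and that of MAP3K14 at most 0.0377. Without MPA 3, the array that stood apart, their log2 fold changes were 2.19 for NFKBIA, 1.96 and 1.81 for TNFAIP3 and -1.02 for MAP3K14. For NFKBIZ 223217_s_at it was then -0.73 (adjusted p = 0.0222). Averaging both probe sets of NFKBIA, of which 1 was dim, gave 1.21 in place of 2.20 (adjusted p = 0.000390).

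**Figure D3:**
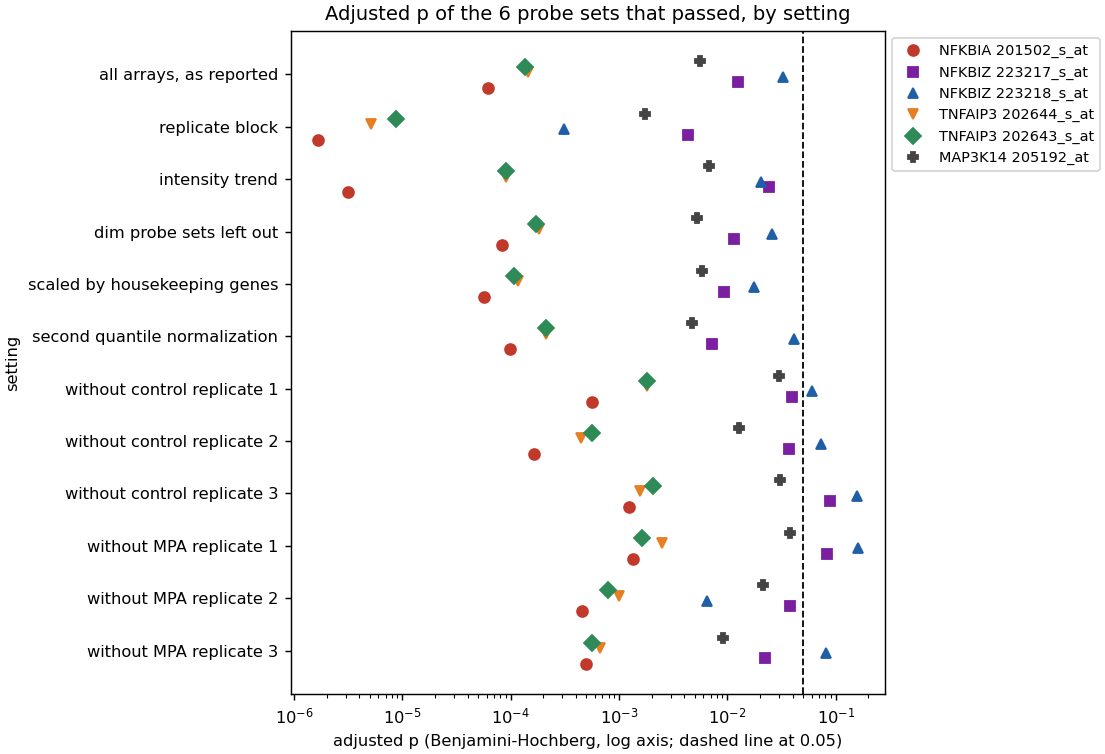
Adjusted p from limma (x axis, log scale, dashed line at 0.05) of the 6 probe sets that passed, with all arrays and under 11 other settings (y axis). NFKBIA, TNFAIP3 and MAP3K14 stay left of the line in every setting shown, while NFKBIZ 223217_s_at crosses it in 2 and NFKBIZ 223218_s_at in 5.

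The rest of the pathway was followed through 54 measured genes in 5 lists, with a median log2 fold change of 0.06. Of these, 1 rose and 1 fell, where 1.74% and 1.16% of all genes did. An unadjusted p under 0.05 was found for 11 of the 54 genes, and for 2327 of all 19775. SAM likewise called IL1R1 higher, CARD10 lower and no other gene of these lists. None of the 5 genes of the NF-kB subunits, on which the inhibitors act, passed the test in limma, and 1 had an unadjusted p under 0.05. NFKB1 was at 9.0, 9.02 and 8.94 on the control arrays and at 8.70, 8.75 and 8.73 with MPA. These groups did not overlap, but the difference of -0.26 did not pass (adjusted p = 0.354). RELA was at -0.03 (95% interval -0.32 to 0.26), RELB at -0.14 and REL at -0.28 (95% interval -1.01 to 0.45). The adjusted p of the 5 subunit genes was 0.354 to 0.979. Of 5 IKK kinase genes none passed, 1 had an unadjusted p under 0.05, and the lowest adjusted p was that of IKBKB, the kinase of the canonical branch, with a log2 fold change of -0.27 (adjusted p = 0.398). CHUK and TBK1 were at 0.26 and 0.33.
Of 12 receptor genes upstream of the pathway, 5 had an unadjusted p under 0.05 and 1 passed. IL1R1, the signaling receptor of interleukin-1, rose from 6.65, 6.99 and 6.68 to 9.28, 9.02 and 9.09. This separation gave a log2 fold change of 2.35 (95% interval 2.06 to 2.65, adjusted p = 8.38e-05 from limma), and the call held whichever array was left out. Its other probe set, which was below the array median on all 6 arrays, rose by 0.84, and the mean over both was 1.60 in place of 2.35. TNFRSF12A, TNFRSF1A and TLR2 were next in size at -0.47, 0.44 and 0.34 and did not pass (adjusted p of 0.175 to 0.305). Among 17 adaptors and ubiquitin ligases, 4 had an unadjusted p under 0.05 and 1 passed. CARD10, a scaffold that links receptors to the IKK complex, fell by 0.69 (adjusted p = 0.0137). CARD10 lost the call without control 1, control 3, MPA 1 or MPA 2 (adjusted p of 0.0780, 0.0987, 0.0596 and 0.0551), and the mean of its probe sets was at -0.16 (adjusted p = 0.750). TRAF5, BIRC2 and MALT1 were at 0.67, 0.52 and -0.39. TRAF5 was called higher without control 2 (adjusted p = 0.0470). Of 15 other negative regulators none passed, and 0 had an unadjusted p under 0.05. The largest differences among them were those of PDLIM2 (-0.51), NKIRAS1 (0.31) and RNF11 (0.21), and the lowest adjusted p was 0.511.

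**Figure D4:**
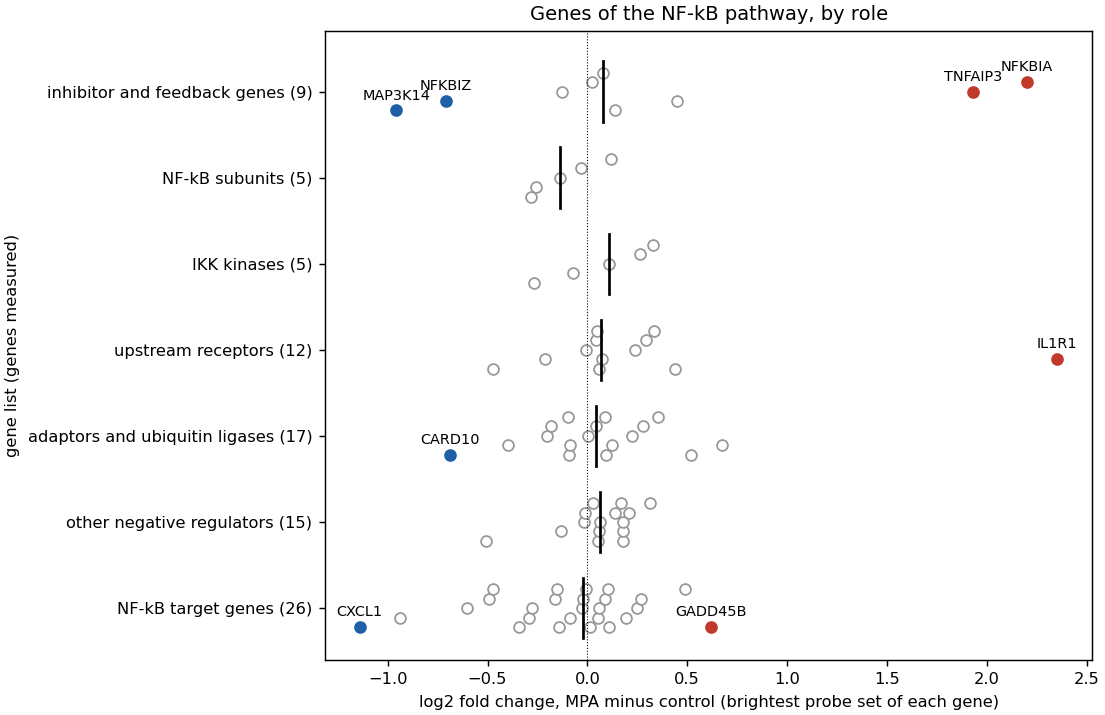
Change with MPA as log2 fold (x axis, 3 arrays a group) in the brightest probe set of each measured gene, for the 9 inhibitor and feedback genes and 6 lists of other pathway and target genes (y axis). Filled red points rose, filled blue points fell, open points did not pass, and black bars are list medians, which lie between -0.14 and 0.11.

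Widely described NF-kB target genes were counted as well, without the inhibitors themselves. Of 26 measured, 1 rose and 1 fell, where 1.74% and 1.16% of all genes did, and the median log2 fold change was -0.02. An unadjusted p under 0.05 was found for 9 of the 26, and for 2327 of all 19775 genes. CXCL2, CXCL8, CXCL10, CCL2, CCL5, CCL20, IL6, TNF, VCAM1, SELE, BCL2A1, PTGS2 and IER3 were below the array median on every array. A change in these dim genes can be missed, as RMA compresses it. The chemokine gene CXCL1 was at 8.80, 8.55 and 8.86 on the control arrays and at 7.45, 7.54 and 7.81 with MPA. Each MPA array was below each control array, and the mean fell by 1.14 (95% interval -1.45 to -0.82, adjusted p = 0.00395 from limma), a call that held whichever array was left out. GADD45B, a stress-induced gene, was at 8.03, 7.90 and 7.87 on the control arrays and at 8.51, 8.48 and 8.67 with MPA, and rose by 0.62 on the log2 scale (adjusted p = 0.0227). Of its other probe sets, 2 were called higher as well, at 0.79 and 0.55. The mean over all GADD45B probe sets was lower, at 0.53 (adjusted p = 0.0297 from limma), so not every probe set rose by as much. With 1 array left out at a time, the brightest one kept its call without MPA 3 (adjusted p = 0.0457) and lost it otherwise, as the adjusted p was 0.0663, 0.0592, 0.150, 0.106 and 0.0571 without control 1, control 2, control 3, MPA 1 and MPA 2. LCN2, which encodes an iron-binding protein of the innate response, lay at -0.94 and did not pass (adjusted p = 0.0553 from limma). It was called lower in 8 other settings, the lowest adjusted p being 0.0140. With 1 array left out at a time, LCN2 was called only without MPA 3 (adjusted p = 0.0307). Its adjusted p was 0.0505 to 0.212 without any other array. CXCL3 and IRF1 were at -0.60 and -0.49 (adjusted p of 0.222 and 0.245). CXCL3 was near or below the array medians, as were IL6 at 4.70 and 4.23 and PTGS2 at 3.79 and 4.28 in control and MPA cells. PTGS2 was called higher by SAM and, with limma, without control 2 (adjusted p = 0.0419), and in no other setting.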

How the data were processed

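RNA of IKPRAB36 cells was hybridized to Affymetrix U133 Plus arrays, 3 without and 3 with MPA. Values as deposited are log2 RMA signals, for which the authors corrected background, normalized arrays to one another and summarized each probe set. An RMA software version was not given in the sources used here. RMA compresses changes of dim probe sets, and detection calls were not used here. Of 54675 probe sets, 62 Affymetrix controls were left out. Gene symbols came from GEO's platform annotation, updated by Entrez identifier (41037 of 41091 with 1 symbol), and those with several symbols were not named.

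Groups were compared with limma 3.58.1 (lmFit, eBayes, two-sided) in R 4.3.3, tested on simulated data beforehand. SAM was written from its description (delta 0.53, 20 relabelings, constant at percentile 55). An exact permutation test of 3 against 3 cannot go below 0.1. Promoters were searched in Python 3.11.15. The members and gene lists were chosen with earlier results of these data known. Named were all members, list genes that passed, the 5 NF-kB subunits, up to 3 others per list with the largest change, and the hormone response genes. TRAF3, IL6, PTGS2, the other dim target genes and the cell type markers were named outside this rule, after their values were seen. Alternatives were a replicate block, SAM, an intensity trend, a filter on dim probe sets, 2 other scalings, other fold minimums, probe sets averaged per gene and each array left out. Of the listed pathway genes, 60 in all, 6 had no probe set of their own, as had CSF2 among 27 target genes. The number of arrays limits the precision.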

Additional observations from a re-analysis of the deposited data

How the results depend on the processing

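The counts of genes that passed were recomputed under each alternative. For the inhibitor and feedback genes, 2 rose and 2 fell with an intensity trend, without dim probe sets, after scaling by housekeeping genes (8 genes), after a second quantile normalization, without a fold minimum and with each gene's probe sets averaged, and SAM called 3 higher and 2 lower. With a 2-fold minimum no member gene and 1 member probe set fell, no other pathway gene fell, no target gene rose, and 357 probe sets rose and 153 fell over the whole array. Leaving out each array in turn, 3 member probe sets rose each time and 1 to 3 fell, 2 member genes rose and 1 to 2 fell, 1 to 2 other pathway genes rose and 0 to 1 fell, and 0 to 1 target genes rose and 1 to 2 fell. Over all probe sets 353 to 725 then rose and 156 to 465 fell, against 663 and 444 with all arrays. SAM called 1313 probe sets higher and 868 lower, and 2 target genes each way. The number of target genes that fell was 2 with an intensity trend, without dim probe sets, after housekeeping scaling, after the second quantile normalization and with probe sets averaged, LCN2 being the second in each. With probe sets averaged, 0 other pathway genes fell. Of the single member probe sets, 264 comparisons stayed on their side of the thresholds under the alternatives other than the fold minimums and averaging, 7 lost the call (all NFKBIZ, with 1 array left out), 1 gained it (CYLD by SAM) and no called probe set changed direction. The 2-fold minimum also ended the calls of MAP3K14 and of NFKBIZ 223217_s_at. The cause of these differences was not tested.

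The replicate numbers are shared by both groups, but same-numbered arrays did not deviate together in every pair (correlations of their deviations from the group means of -0.02, 0.52 and 0.33), and control 1 correlated best with MPA 3. Controls 2 and 3 correlated best with the MPA array of the same number. With 3 arrays a group, these correlations cannot settle whether the numbers mark pairs. The main test did not pair them, and the replicate block was an alternative. With the replicate block, 1208 probe sets rose and 825 fell. The member counts stayed at 2 and 2 genes, while 2 other pathway genes rose (TRAF5 the second) and 3 target genes fell (CXCL1, LCN2 and IL6).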
